A study of Mus musculus with 30 samples.

Results

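The genes described here are 38 genes of ribosome biogenesis, chosen by symbol: factors of RNA polymerase I transcription, nucleolar chaperones, small nucleolar ribonucleoproteins (snoRNPs), and assembly factors of the small and large ribosomal subunits. All 38 symbols were listed in each of the study's 3 count tables, which hold 21983 symbols (thymus DP and CD4 SP) or 46095 symbols (thymus CD8 SP; spleen CD4 and CD8). RNA was sequenced from T cells sorted out of C57BL/6 mice of a pair of genotypes. The CKO mice are labelled CD4-Cre+ PRMT5fl/fl, a conditional knockout in which Cre driven by Cd4 regulatory sequences acts in T cells from the double-positive thymocyte stage onward. The WT mice are labelled wild type. The labels name no group with CD4-Cre alone, so Cre and the targeting of Prmt5 cannot be told apart, and they give no age. The 30 libraries cover 5 populations, with 3 mice of each genotype in each: thymus double-positive cells (DP, with both CD4 and CD8), thymus CD4 single-positive cells (CD4 SP), thymus CD8 single-positive cells (CD8 SP), spleen CD4 cells and spleen CD8 cells.

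Ribosomes are assembled in the nucleolus, where RNA polymerase I copies the ribosomal DNA into a long precursor RNA. Box C/D and box H/ACA snoRNPs place methyl groups and pseudouridines on that precursor, large processing complexes fold and cut it, and assembly factors escort the small (40S) and large (60S) subunits to export. In T cells the pathway is known to be induced on activation, with Myc and mTORC1 among its regulators. Prmt5, the enzyme whose gene is targeted here, places symmetric dimethyl marks on arginines of histones, splicing proteins and nucleolar proteins.

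A thymus DP library held between 13032992 and 18576401 counts, a CD4 SP library between 11865646 and 22881226, and a CD8 SP library between 28721963 and 35353441. In the spleen the range was 24729146 to 27137018 counts for CD4 cells and 25426449 to 27192847 for CD8 cells. Levels are given as CPM, counts divided by the TMM-scaled library size of their table, and each log2 fold change sets CKO over WT and is followed by its standard error (SE). A gene is called where edgeR's quasi-likelihood test gave an adjusted p under 0.05 over all genes tested. The targeted gene Prmt5 was at 23.9, 18.8 and 24.03 CPM in CKO spleen CD4 libraries, against 43.2, 44.2 and 43.5 CPM in WT, a log2 fold change of -0.97 ± 0.10 (adjusted p = 1.09e-04). In spleen CD8 it was at 35.6, 29.3 and 42.0 CPM in CKO and at 67.98, 61.7 and 65.6 CPM in WT (-0.87 ± 0.12, adjusted p = 8.29e-04). In the thymus the log2 fold changes of Prmt5 were -1.09 ± 0.09 in DP (adjusted p = 8.45e-04), -0.31 ± 0.05 in CD8 SP (adjusted p = 0.0450) and -0.99 ± 0.27 in CD4 SP (adjusted p = 0.958), so the transcript was called lower in 4 of the 5 populations. The CKO and WT libraries did not overlap for Prmt5 in any of the 5 populations. The CKO 14 library of thymus CD4 SP stood apart from the others of its population, as described with those libraries.

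In the spleen a minority of the ribosome biogenesis genes was lower in CKO cells, and none was called higher. In spleen CD4 cells 6 of 38 fell (Npm1, Ncl, Gnl3, Ddx21, Wdr43 and Dkc1), where 5.63% of all 14292 genes tested were called lower, and 0 of 38 rose, where 8.53% were called higher. In spleen CD8 cells 8 of 38 fell (Npm1, Gnl3, Wdr43, Pes1, Utp20, Nop2, Gar1 and Polr1b), against 6.22% of 13917 genes tested, and 0 rose, against 9.83%. Of the genes with no call, 4 in CD4 cells and 1 in CD8 cells had a positive estimate at an unadjusted p under 0.05, where 15.7% of all genes tested in CD4 cells and 16.5% in CD8 cells did. DESeq2 and limma voom each called 1 of the 38, Wdr12, higher in spleen CD4, and 0 in spleen CD8. The median log2 fold change of the 38 genes was -0.10 in CD4 cells and -0.12 in CD8 cells, beside -0.01 over all genes tested in each. Estimates were negative for 26 of 38 in CD4 cells and for 30 of 38 in CD8 cells. Changes were small: the called genes ran from -0.22 to -0.39 in CD4 cells and from -0.24 to -0.44 in CD8 cells on the log2 scale. In such bulk libraries fewer cells of a type with high levels and less RNA per cell cannot be told apart.

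**Figure D1:**
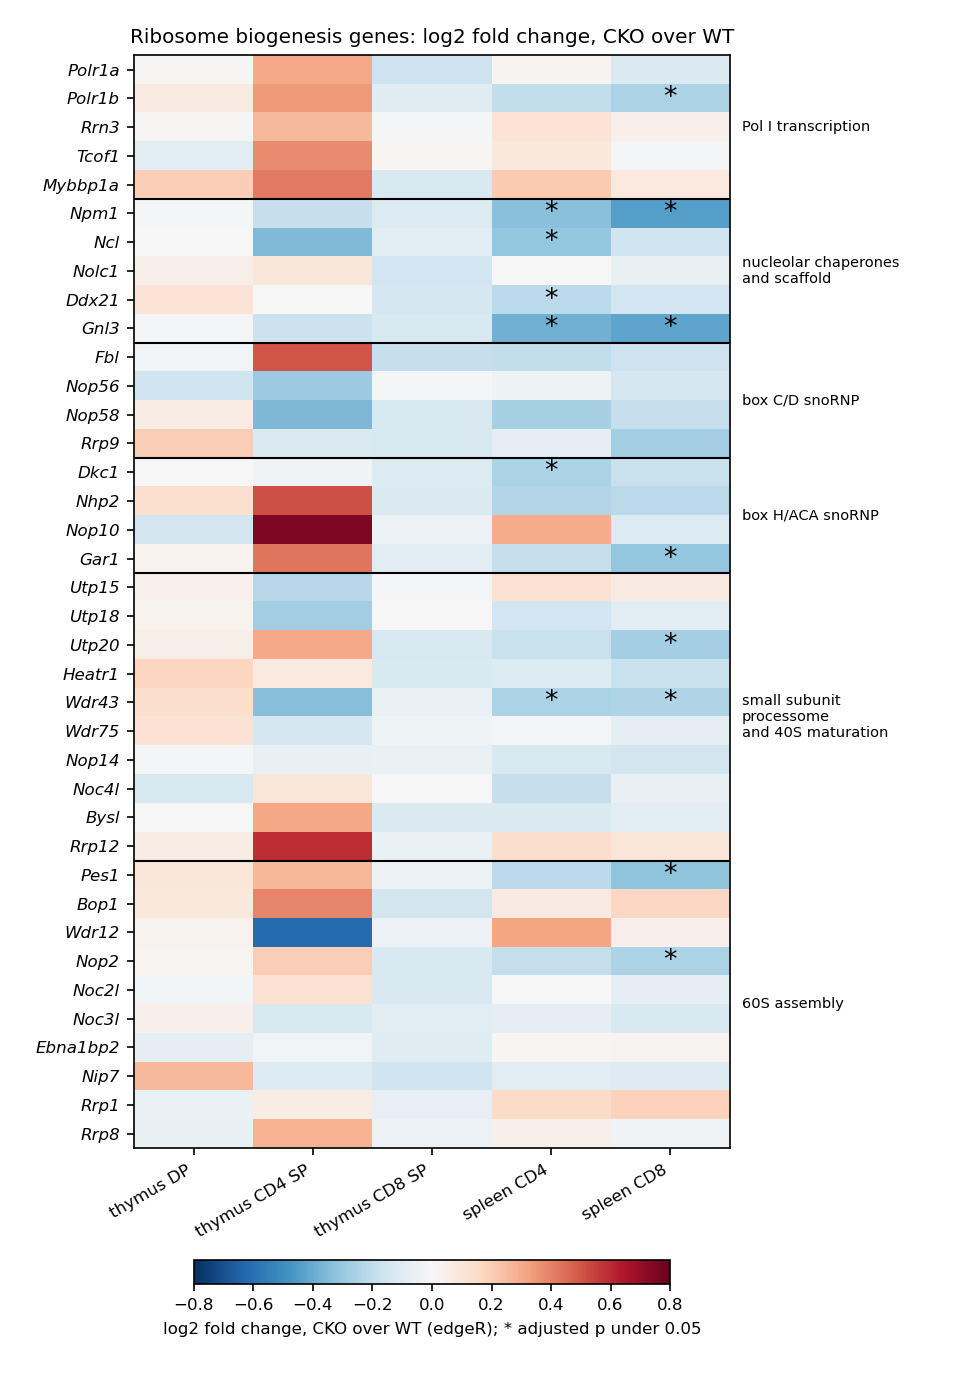
Log2 fold change of CKO over WT for the 38 genes (rows, grouped by role) in 5 populations (columns), from edgeR; blue is lower in CKO, red is higher, and an asterisk marks an adjusted p under 0.05 (3 mice per genotype). The 14 asterisks all lie in the spleen columns and all mark lower levels in CKO.

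Npm1, Gnl3 and Wdr43 were called in both spleen populations, which is 3 of the 6 on the CD4 list and 3 of the 8 on the CD8 list. Both sets of libraries came from the same 6 mice, so the lists are not independent. When each library was left out in turn, Npm1 was called in all 6 fits in CD4 cells, and Npm1 and Pes1 in all 6 fits in CD8 cells. The other calls were lost in at least 2 of those fits in CD4 cells and at least 3 in CD8 cells. In CD4 cells Ncl was called in 4 of the 6 fits, Ddx21 and Wdr43 in 2, and Gnl3 and Dkc1 in 1. In CD8 cells Utp20 was called in 3, Gnl3 in 2, Wdr43, Gar1 and Polr1b in 1, and Nop2 in 0. The number called lower in CD4 cells was 1 without WT 70, 2 without WT 67 or CKO 72, and 3 without WT 71 or CKO 65. In CD8 cells it was 2 without WT 67, 70 or 71, 3 without CKO 72 and 5 without CKO 65.

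Of the called genes, Nop2, Utp20, Pes1 and Wdr43 carry the E-box CACGTG, the core motif bound by Myc with Max, in the RefSeq promoter (GRCm38.p6, 250 bases before to 50 after the transcription start). These 4 are printed because a promoter with this motif and a lower level in CKO spleen CD8 cells occur in the same genes; each line reads 5′ to 3′ on the gene's strand, and capitals mark CACGTG. Nop2 lies at chr6:125131633-125131932 (plus strand), Utp20 at chr10:88826765-88827064 (minus strand), Pes1 at chr11:3963725-3964024 (plus strand) and Wdr43 at chr17:71615965-71616264 (plus strand).
Nop2: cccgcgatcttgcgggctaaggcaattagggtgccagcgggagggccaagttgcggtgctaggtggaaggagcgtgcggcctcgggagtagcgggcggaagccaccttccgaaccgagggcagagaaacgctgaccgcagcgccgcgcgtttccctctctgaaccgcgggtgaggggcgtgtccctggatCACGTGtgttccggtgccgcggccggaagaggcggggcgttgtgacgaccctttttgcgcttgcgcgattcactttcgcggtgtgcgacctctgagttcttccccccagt
Utp20: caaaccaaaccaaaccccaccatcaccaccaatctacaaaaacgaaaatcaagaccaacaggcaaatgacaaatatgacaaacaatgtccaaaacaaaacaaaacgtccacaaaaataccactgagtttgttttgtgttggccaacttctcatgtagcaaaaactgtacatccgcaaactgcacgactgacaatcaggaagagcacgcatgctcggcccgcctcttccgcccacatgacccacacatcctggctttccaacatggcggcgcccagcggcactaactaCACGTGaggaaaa
Pes1: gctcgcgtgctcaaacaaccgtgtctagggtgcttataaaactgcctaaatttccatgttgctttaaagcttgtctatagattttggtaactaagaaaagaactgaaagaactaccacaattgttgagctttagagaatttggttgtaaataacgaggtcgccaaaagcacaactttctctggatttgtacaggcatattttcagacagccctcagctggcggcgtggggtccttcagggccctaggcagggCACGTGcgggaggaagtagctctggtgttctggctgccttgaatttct
Wdr43: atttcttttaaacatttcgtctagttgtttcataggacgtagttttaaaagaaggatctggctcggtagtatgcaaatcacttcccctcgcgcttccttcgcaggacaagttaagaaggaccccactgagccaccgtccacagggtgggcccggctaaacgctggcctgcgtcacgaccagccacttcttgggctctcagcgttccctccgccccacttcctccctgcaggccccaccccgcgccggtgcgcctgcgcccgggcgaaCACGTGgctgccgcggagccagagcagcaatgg
The motif, its own reverse complement and so the same on both strands, begins 60 bases before the start in Nop2 and 2, 17 and 37 bases after it in Pes1, Wdr43 and Utp20. It was found in 7 of the 33 ribosome biogenesis genes in the promoter table (21.2%), beside 2187 of all 27025 genes there (8.09%). The ribosome biogenesis genes are all protein-coding. The 27025 outnumber the 21900 protein-coding genes of the annotation, so the 2 shares cover unlike sets of genes. Rrn3 holds the motif at 2 places, and Mybbp1a and Utp18 at 1 each, and none of these 3 was called in CKO cells. Of the 7 genes called in spleen CD8 that the table holds, 4 have the motif, and of the 5 called in spleen CD4, 1 has it (Wdr43). The table has no entry for Npm1, Fbl, Tcof1, Rrp12 or Bop1. A match describes letters in the window, and binding was not measured here.

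Among the nucleolar chaperones and scaffold proteins, 4 of 5 fell in spleen CD4 cells and 2 of 5 in spleen CD8 cells. Npm1 (chr11:33152498-33164142 in GRCm38), which encodes nucleophosmin, the protein that organises the granular part of the nucleolus, had 443, 492 and 461 CPM in CKO CD4 cells (mice 65, 68 and 72), against 603, 574 and 580.2 CPM in WT (mice 67, 70 and 71). In CD8 cells it had 555, 648 and 571 CPM in CKO, against 858, 777 and 774 CPM in WT. Every CKO library lay below every WT library in both populations, with log2 fold changes of -0.33 ± 0.06 in CD4 cells (adjusted p = 0.00577) and -0.44 ± 0.08 in CD8 cells (adjusted p = 0.00337). Processed copies of Npm1 are known in the mouse genome, and how the counting split their reads is not stated.

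Gnl3 (chr14:31012433-31019131) encodes nucleostemin, a nucleolar GTPase of dividing and stem-like cells. It had 65.7, 94.6 and 85.3 CPM in CKO CD4 cells, against 118, 98.0 and 105 CPM in WT, and 87.4, 122 and 99.3 CPM in CKO CD8 cells, against 139, 143 and 134 CPM in WT. The groups did not overlap, but CKO 68 came close to WT in CD4 cells, and CKO 65 was lowest in both populations. The log2 fold changes were -0.39 ± 0.12 (adjusted p = 0.0473) in CD4 cells and -0.42 ± 0.11 (adjusted p = 0.0248) in CD8 cells. Gnl3 overlaps Glt8d1 in the annotation, and whether the authors counted by strand is not stated, so its counts are less certain.

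Ncl (chr1:86344719-86359455) encodes nucleolin, which binds the precursor RNA and the ribosomal DNA. It had 812, 975 and 889 CPM in CKO CD4 cells, against 1075, 1150.1 and 1086 CPM in WT, with no overlap (-0.31 ± 0.08, adjusted p = 0.0187). In CD8 cells the 1312 CPM of CKO 68 lay within the WT range of 1264 to 1342 CPM, and Ncl was not called there. Ddx21 (chr10:62580247-62602298), an RNA helicase that links polymerase I and II transcription, had 298, 308 and 299 CPM in CKO CD4 cells, against 359.5, 354 and 339.5 CPM in WT (-0.22 ± 0.06, adjusted p = 0.0314). Its CKO CD8 libraries, at 346, 391 and 388 CPM, also lay below the WT libraries, at 451, 403 and 403 CPM, without a call (-0.15 ± 0.08, adjusted p = 0.199). Nolc1, a scaffold of snoRNPs, showed overlapping groups in both populations, with estimates of -0.01 in CD4 cells and -0.06 in CD8 cells.

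**Figure D2:**
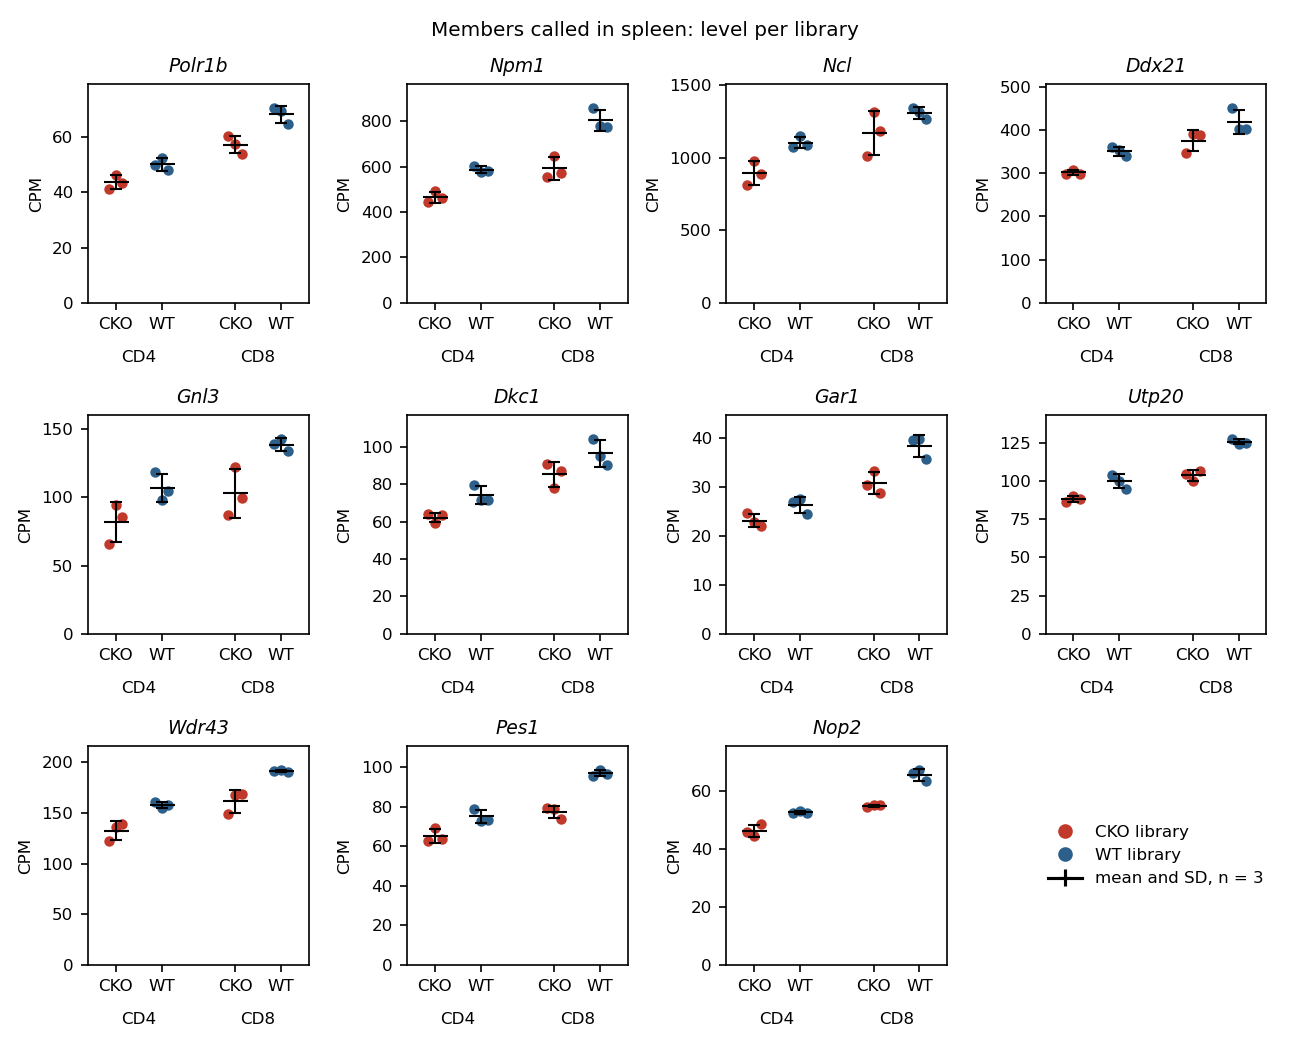
CPM per library (linear axis from 0) of the 11 genes called lower in at least 1 spleen population, CKO left of WT within CD4 and within CD8; each point is 1 mouse, and bars give mean and SD (n = 3). Npm1 shows 443 to 492 CPM in CKO CD4 cells below 574 to 603 CPM in WT, and 555 to 648 CPM in CKO CD8 cells below 774 to 858 CPM in WT.

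Of the polymerase I factors, 1 of 5 fell in CD8 cells and 0 of 5 in CD4 cells. Polr1b (chr2:129100970-129128060), the second-largest subunit of the polymerase, had 60.3, 57.6 and 54.0 CPM in CKO CD8 cells, against 70.6, 69.6 and 64.7 CPM in WT. The closest CKO and WT libraries lay at 60.3 and 64.7 CPM, and the call was marginal (-0.25 ± 0.08, adjusted p = 0.0495). Polr1a, the largest subunit, had estimates of 0.02 in CD4 cells and -0.11 in CD8 cells. Mybbp1a, a nucleolar protein that binds Myb and restrains ribosomal RNA synthesis, stood at 239, 301 and 283 CPM in CKO CD4 cells, against 236, 243 and 233 CPM in WT (0.21 ± 0.08, adjusted p = 0.112). The factor Rrn3, which loads the polymerase on the promoter, and Tcof1, or treacle, also passed no test in the spleen.

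The box C/D snoRNP genes, whose enzyme fibrillarin (Fbl) methylates ribose in ribosomal RNA, had negative estimates for 4 of 4 genes in both spleen populations, and 0 of 4 passed. Fbl had 70.3, 79.8 and 75.8 CPM in CKO CD4 cells, against 86.8, 89.6 and 82.8 CPM in WT (-0.20 ± 0.07, adjusted p = 0.0868). In CD8 cells CKO 68, at 113 CPM, lay within the WT range of 105 to 115 CPM. Nop58, a core protein of these particles, had the lowest adjusted p of the group in CD4 cells (-0.27 ± 0.09, adjusted p = 0.0587), and Rrp9, which binds the U3 snoRNA, had it in CD8 cells (-0.28 ± 0.11, adjusted p = 0.107).

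The box H/ACA genes encode the particle that makes pseudouridine, and 1 of 4 fell in each spleen population, a different gene in each. Dkc1 (chrX:75095854-75109776), or dyskerin, the pseudouridine synthase, had 64.0, 59.3 and 63.6 CPM in CKO CD4 cells, against 79.9, 71.6 and 71.5 CPM in WT (-0.25 ± 0.07, adjusted p = 0.0382). Its CD8 libraries overlapped between CKO, at 91.1, 77.8 and 87.3 CPM, and WT, at 104, 95.4 and 90.2 CPM (-0.18 ± 0.08, adjusted p = 0.188). Dkc1 overlaps Mpp1 in the annotation, which makes its counts less certain. Gar1 (chr3:129824912-129831407), a partner protein of dyskerin, had 30.4, 33.3 and 28.9 CPM in CKO CD8 cells, against 39.6, 39.9 and 35.8 CPM in WT (-0.31 ± 0.09, adjusted p = 0.0463). Nhp2, another partner, had CKO libraries entirely below WT in both populations without a call (-0.24 ± 0.10, adjusted p = 0.135 in CD4 cells, and -0.22 ± 0.10, adjusted p = 0.154 in CD8 cells). Nop10, the smallest partner, had the opposite sign in CD4 cells, at 25.6, 21.9 and 25.9 CPM in CKO, against 18.8, 17.8 and 23.1 CPM in WT, with overlap and no call (0.30 ± 0.12, adjusted p = 0.127).

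Among the 10 genes of the small subunit processome and 40S maturation, 1 fell in CD4 cells and 2 in CD8 cells. Wdr43 (chr17:71616178-71659031), a subunit of the UTP-A complex that starts assembly on the precursor RNA, had 122, 136 and 139.6 CPM in CKO CD4 cells, against 161, 155 and 158 CPM in WT (-0.25 ± 0.07, adjusted p = 0.0294). It had 149, 168 and 169 CPM in CKO CD8 cells, against 191, 193 and 190.3 CPM in WT (-0.24 ± 0.07, adjusted p = 0.0441). The groups were apart in both populations, with CKO 65 lowest. Utp20 (chr10:88746607-88826814), a large scaffold of the processome, had 105, 99.9 and 107 CPM in CKO CD8 cells, against 128, 124 and 125 CPM in WT (-0.27 ± 0.07, adjusted p = 0.0166). In CD4 cells Utp20 lay at 86.5, 90.3 and 88.0 CPM in CKO, below 104, 100.3 and 94.9 CPM in WT, but missed the threshold (-0.18 ± 0.07, adjusted p = 0.0960). Heatr1, another scaffold of the processome, had 132, 135 and 139 CPM in CKO CD8 cells, against 155, 152 and 154 CPM in WT, with the groups apart and no call (-0.18 ± 0.06, adjusted p = 0.0829). Rrp12, an export factor of pre-ribosomes, gave the third-smallest p among positive estimates in CD8 cells, at 0.09 ± 0.07 (adjusted p = 0.438).

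Of the 10 genes of 60S assembly, 2 fell in CD8 cells and 0 in CD4 cells. Pes1 (chr11:3963975-3980004), or pescadillo, is part of the PeBoW complex with Bop1 and Wdr12. It had 79.1, 78.9 and 73.9 CPM in CKO CD8 cells, against 95.5, 98.5 and 96.6 CPM in WT, with tight groups far apart (-0.32 ± 0.07, adjusted p = 0.00921). Nop2 (chr6:125131883-125144753), a methyltransferase of the large ribosomal RNA and an old marker of proliferation, had 54.5, 55.3 and 55.1 CPM in CKO CD8 cells, against 66.3, 67.4 and 63.4 CPM in WT (-0.25 ± 0.07, adjusted p = 0.0343).

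The PeBoW partners Wdr12 and Bop1 had positive estimates in both spleen populations. Wdr12 had 29.99, 29.9 and 35.7 CPM in CKO CD4 cells, against 26.5, 25.8 and 24.4 CPM in WT, so that every CKO library was above every WT library (0.32 ± 0.10, adjusted p = 0.0512). It missed the threshold in edgeR and was called higher by DESeq2, by limma voom, and in edgeR with no filter or a 5 CPM filter. In CD8 cells its groups overlapped, at 28.8, 21.3 and 24.4 CPM in CKO and 24.8, 22.7 and 25.1 CPM in WT. Bop1 had an estimate of 0.17 ± 0.08 in CD8 cells (adjusted p = 0.185). Rrp1 had 217, 254 and 228 CPM in CKO CD8 cells, each above the 215, 203 and 198 CPM in WT, and was not called (0.19 ± 0.08, adjusted p = 0.131). Wdr12 and Bop1 each overlap other annotated genes, so their counts are less certain.

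The genotype effects in the 2 spleen populations were compared in 1 fit over 12 libraries, with the effect in CD8 cells minus that in CD4 cells as the quantity tested. By edgeR 0 of 38 genes differed, where 2.56% of 14958 genes tested were called in either direction. At an unadjusted p under 0.05 the count was 1, Nop10 (-0.41 ± 0.17, adjusted p = 0.299), beside 12.4% of all genes tested, and DESeq2 and limma voom also called 0 of 38. For the genes called in 1 spleen population, the differences were 0.14 ± 0.12 for Ncl, 0.06 ± 0.09 for Ddx21, 0.08 ± 0.11 for Dkc1, -0.12 ± 0.09 for Pes1, -0.10 ± 0.08 for Utp20, -0.07 ± 0.09 for Nop2, -0.12 ± 0.13 for Gar1 and -0.06 ± 0.10 for Polr1b. The next smallest p among negative differences were those of Wdr12 (-0.28 ± 0.16, adjusted p = 0.515) and Rrp9 (-0.21 ± 0.14, adjusted p = 0.625), and among positive ones, after Ncl, those of Noc4l (0.12 ± 0.12, adjusted p = 0.794) and Bop1 (0.09 ± 0.10, adjusted p = 0.830). None passed, so a call in CD4 or CD8 cells alone is not shown to be a difference between them. Both populations came from the same mice, and with mouse as a block 0 of 38 were called as well, while the genes called over the whole table became 672 higher and 411 lower.

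**Figure D3:**
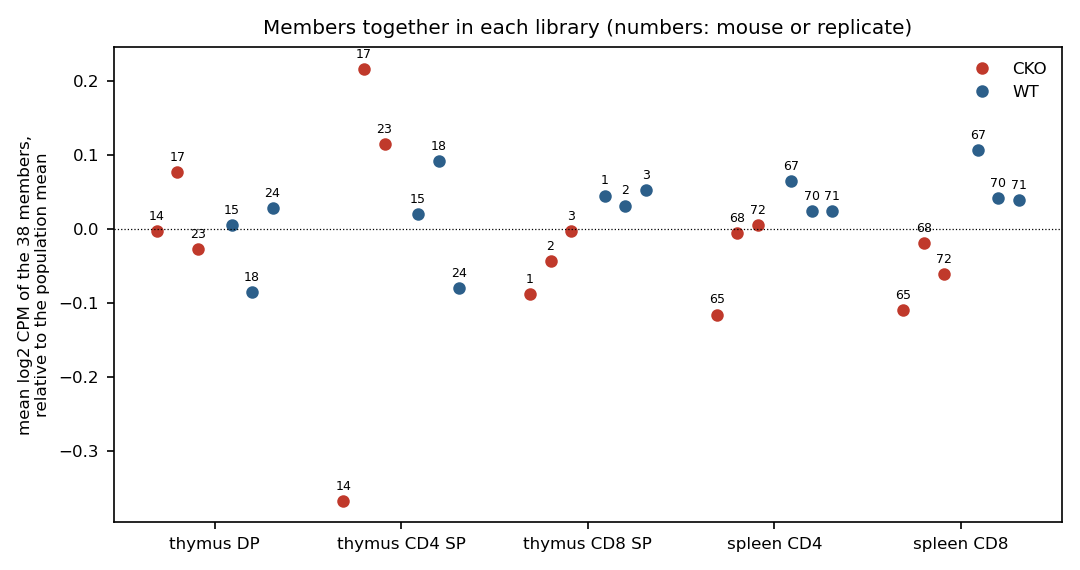
Mean log2 CPM of the 38 genes in each library, relative to the mean of its population; CKO points stand left of WT points, and labels give the mouse or replicate number. In spleen CD8 the CKO libraries sit at -0.11, -0.02 and -0.06 and the WT libraries at 0.11, 0.04 and 0.04, while CKO 14 of thymus CD4 SP sits at -0.37.

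Taken as a mean over the 38 genes, the spleen libraries ordered by genotype. In CD8 cells the mean deviation from the population was -0.11, -0.02 and -0.06 on the log2 scale in CKO (mice 65, 68 and 72), against 0.11, 0.04 and 0.04 in WT (mice 67, 70 and 71). In CD4 cells it was -0.12, -0.01 and 0.01 in CKO, against 0.07, 0.02 and 0.02 in WT. No CKO library reached the lowest WT library, and CKO 65 was the lowest library in both populations. Per gene, the CKO libraries lay entirely below the WT libraries for 17 of 38 genes in CD4 cells and 14 of 38 in CD8 cells, beside 15.7% of all genes tested in CD4 cells and 17.2% in CD8 cells. They lay entirely above for 2 of 38 genes in CD4 cells, beside 17.3% of all genes tested, and for 1 of 38 in CD8 cells, beside 18.3%.

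Markers of other cell states moved with genotype in the same spleen libraries. Beside the counts below, 5.63% of all genes tested were called lower and 8.53% higher in CD4 cells, and 6.22% and 9.83% in CD8 cells. The 10 dividing-cell markers summed to 345 to 505 CPM in CKO CD8 cells, against 159 to 185 CPM in WT, and 9 of 10 rose; in CD4 cells they summed to 211 to 439 CPM in CKO, against 202 to 230 CPM in WT, and 0 of 10 passed in edgeR. The 10 effector CD8 markers summed to 819 to 1386 CPM in CKO CD8 cells, against 266 to 459 CPM in WT, and 9 of 10 rose; in CD4 cells 3 of 10 rose and 1 fell. The 5 natural killer cell markers summed to 115 to 173 CPM in CKO CD8 cells, against 97.1 to 104 CPM in WT, and 3 of 5 rose. Myeloid markers were called higher in CKO for 8 of 8 genes in CD4 cells, with sums of 118 to 261 CPM in CKO and 68.8 to 98.9 CPM in WT, and for 4 of 8 in CD8 cells, with sums of 43.0 to 68.2 CPM in CKO and 20.04 to 29.2 CPM in WT. The 8 mature single-positive markers summed to 3530 to 3607 CPM in CKO CD8 cells, against 4393 to 4609 CPM in WT, and 5 of 8 fell. B cell markers summed to 23.8 to 27.8 CPM in CKO CD8 cells and 20.3 to 27.9 CPM in WT, and to 10.5 to 14.2 CPM in CKO CD4 cells and 13.1 to 15.4 CPM in WT, with 0 called by edgeR in either and Ighm listed at 0 in every spleen library. No dividing, effector, natural killer or myeloid marker was at 0 in any spleen library. Their part in the levels of the ribosome biogenesis genes was not tested.

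A wider list held 126 other ribosome biogenesis genes, of which 125 were tested. In spleen CD4 cells 16 were lower and 4 higher, where 5.63% and 8.53% of all genes tested were. In spleen CD8 cells 22 were lower and 2 higher, where 6.22% and 9.83% of all genes tested were. Its median log2 fold change was -0.10 in CD4 cells and -0.14 in CD8 cells. Nsa2, a 60S assembly factor, had 132, 138 and 129 CPM in CKO CD4 cells, against 177, 179.8 and 191 CPM in WT (-0.45 ± 0.06, adjusted p = 7.29e-04), and a log2 fold change of -0.56 ± 0.07 in CD8 cells (adjusted p = 5.24e-04). Rcl1, a processome component, fell by 0.51 ± 0.10 in CD4 cells (adjusted p = 0.00590) and by 0.46 ± 0.09 in CD8 cells (adjusted p = 0.00719) on the log2 scale. Of the other processome genes, Tsr1, Imp4 and Utp4 also fell in both, by 0.37 ± 0.07, 0.37 ± 0.07 and 0.29 ± 0.07 in CD4 cells (adjusted p = 0.00387, 0.00485 and 0.0190). Of the other 60S genes, Las1l, an endonuclease of spacer cleavage, was at -0.30 ± 0.07 in CD4 cells (adjusted p = 0.0111), and Nop53 at -0.36 ± 0.06 in CD8 cells (adjusted p = 0.00304). Of the polymerase I list, Polr1f, a stalk subunit, fell in both (-0.39 ± 0.08 and -0.35 ± 0.09, adjusted p = 0.00810 in CD4 cells and 0.0234 in CD8 cells), while Taf1c, part of the SL1 promoter factor, rose in both (0.48 ± 0.10 and 0.39 ± 0.08, adjusted p = 0.00682 in CD4 cells and 0.00796 in CD8 cells). Naf1, which assembles H/ACA particles, was the 1 gene of 10 on the snoRNP assembly list to pass in each population (-0.42 ± 0.13 in CD4 cells, adjusted p = 0.0423, and -0.42 ± 0.12 in CD8 cells, adjusted p = 0.0387). None of the 14 genes of the RNA exosome, which trims the precursor, was called by edgeR in either, with the smallest p for Mphosph6 (-0.32 ± 0.12, adjusted p = 0.0880) and Exosc9 (-0.22 ± 0.10, adjusted p = 0.156) in CD4 cells, and for Exosc2 (-0.29 ± 0.10, adjusted p = 0.0644) and Exosc6 (-0.35 ± 0.13, adjusted p = 0.0914) in CD8 cells.

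On a list of 20 genes of the Myc network and mTORC1, 4 rose and 0 fell in CD4 cells, and 5 rose and 1 fell in CD8 cells. Of all genes tested, 8.53% rose and 5.63% fell in CD4 cells, and 9.83% rose and 6.22% fell in CD8 cells. The genes with the smallest p were Rps6kb1, the S6 kinase downstream of mTORC1 (0.74 ± 0.06, adjusted p = 2.45e-05 in CD4 cells), and Akt1s1, an inhibitory subunit of mTORC1 (0.68 ± 0.08, adjusted p = 2.36e-04 in CD4 cells). The 1 gene that fell was Myc, the transcription factor that drives many ribosome biogenesis genes, at 144, 144 and 159 CPM in CKO CD8 cells, against 191, 165 and 183 CPM in WT (adjusted p = 0.0370); it is named here after its value was seen.

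In thymus CD8 SP cells 0 of 38 genes were called in either direction by edgeR, where 0.0805% of 14911 genes tested were called lower and 0.0335% higher, but estimates leaned 1 way. They were negative for 37 of 38 genes, beside 50.8% of all genes tested, with a median of -0.10 beside -0.0024 and a range of -0.19 to 0.01. At an unadjusted p under 0.05 the counts were 13 lower, where 5.37% of all genes tested were, and 0 higher, where 5.01% were, and DESeq2 and limma voom called 0. Fbl had 116, 121 and 135 CPM in CKO, against 138, 146 and 138 CPM in WT (-0.19 ± 0.06, adjusted p = 0.283). Polr1a had 116, 116 and 121 CPM in CKO, against 124, 133 and 139 CPM in WT (-0.17 ± 0.05, adjusted p = 0.283). Both are among 16 of 38 genes with CKO libraries entirely below WT, beside 7.68% of all genes tested, and 0 of 38 had them entirely above, beside 7.74%. The third-smallest p was that of Nolc1, at 220.2, 244 and 245 CPM in CKO and 259, 260.0 and 268 CPM in WT (-0.15 ± 0.05, adjusted p = 0.295), and the 1 positive estimate was that of Tcof1 (0.01, adjusted p = 0.940).

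**Figure D4:**
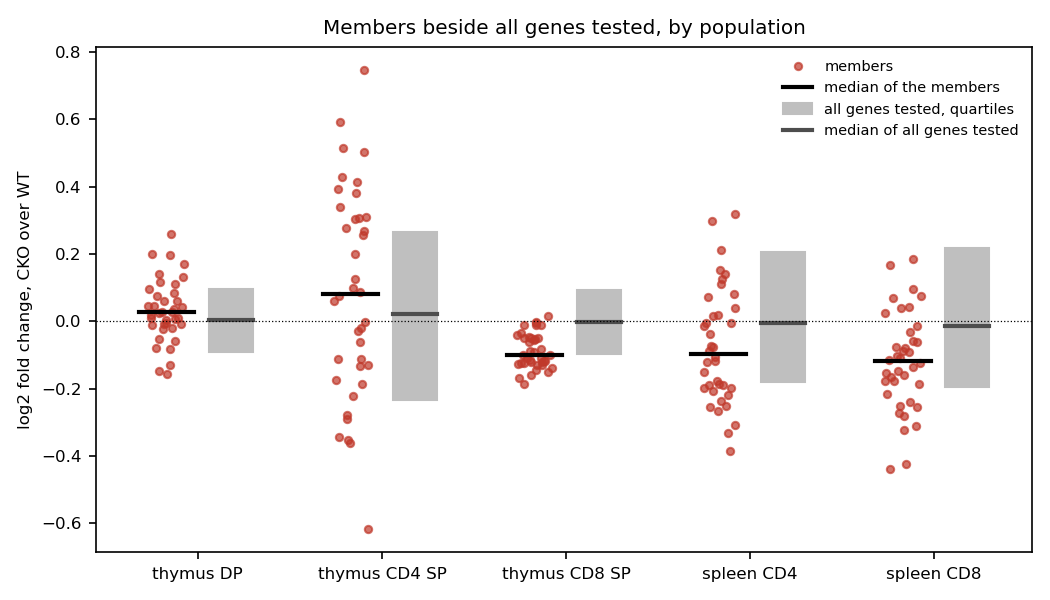
Log2 fold change of CKO over WT for the 38 genes (points, black line at their median) beside the quartiles and median of all genes tested (grey) in each population. In thymus CD8 SP the points lie between -0.19 and 0.01, while in thymus CD4 SP they run from -0.62 to 0.75.

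Sex was not balanced in thymus CD8 SP. Read from the Y-linked gene Ddx3y, since no label gives it, all 3 WT mice were male, and of the CKO mice replicate 1 was male and replicates 2 and 3 female. All spleen libraries were read as female, and the other thymus groups each held 1 male and 2 female mice. With sex as a covariate, 35 of 38 estimates were negative with a median of -0.15. No WT mouse was female, so the genotype effect of that fit rests on CKO replicate 1 alone against WT. Over the 38 genes, CKO replicate 1 had the lowest mean deviation, -0.09, and the fit cannot tell sex from genotype in the other CKO mice. With each library left out in turn, 33 to 36 were negative, with medians of -0.11 to -0.06. Dividing-cell markers summed to 5509 to 5681 CPM in CKO and 4871 to 5436 CPM in WT, and mature single-positive markers to 889 to 925 CPM in CKO and 997 to 1114 CPM in WT, with 0 of 10 and 0 of 8 called by edgeR. The part of these markers in the values was not tested. Among the 42 other small subunit genes 0 were called by edgeR in CD8 SP, and 29 estimates were negative.

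In thymus DP cells, 0 of 38 genes were called higher, where 0.0172% of 11634 genes tested were, and 0 lower, against 0.0086%. The median was 0.03 and 13 estimates were negative. At an unadjusted p under 0.05 edgeR had 2 higher, where 3.23% of all genes tested were, and 0 lower, where 3.83% were, and DESeq2 and limma voom called 0. Nip7, a 60S factor, had 32.7, 39.6 and 31.1 CPM in CKO, against 28.6, 28.5 and 29.1 CPM in WT (0.26 ± 0.11, adjusted p = 0.693), and Mybbp1a had 106, 121 and 99.7 CPM in CKO, against 95.98, 85.4 and 102 CPM in WT (0.20 ± 0.09, adjusted p = 0.702). Nop56, a core box C/D protein, had the smallest p among negative estimates, with overlapping libraries at 266, 272 and 251 CPM in CKO and 320.1, 293 and 266 CPM in WT (-0.16 ± 0.08, adjusted p = 0.720). The third-smallest p among positive estimates was that of Rrp9 (0.20 ± 0.12, adjusted p = 0.767). After Nop56, the smallest among negative ones were those of Noc4l, a 40S assembly factor (-0.13 ± 0.09, adjusted p = 0.806), and Nop10 (-0.15 ± 0.12, adjusted p = 0.838), and the groups overlapped for all 3. Npm1 stood at 167, 158 and 179 CPM in CKO and 169, 162 and 176 CPM in WT, with the groups intermixed. Dividing-cell markers in DP summed to 2230 to 2475 CPM in CKO and 2404 to 3592 CPM in WT. All had negative estimates, such as Cenpf (-0.55 ± 0.11, adjusted p = 0.660), and none was called by edgeR. Mature single-positive markers summed to 699 to 715 CPM in CKO and 557 to 624 CPM in WT. The part of these markers was not tested.

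In thymus CD4 SP cells 0 of 38 genes were called by edgeR in either direction, where 0% of 11839 genes tested were called higher and 0% lower. At an unadjusted p under 0.05 there were 2 higher, against 1.32% of all genes tested, and 0 lower, against 1.27%, and DESeq2 and limma voom called 0. The CKO libraries disagreed with each other: over the 38 genes the mean deviation was -0.37, 0.22 and 0.12 for CKO mice 14, 17 and 23, against 0.02, 0.09 and -0.08 in WT. Npm1 was at 63.2 CPM in CKO 14 but 278 and 228 CPM in CKO 17 and CKO 23, against 226, 234 and 189 CPM in WT. Tcof1 went the other way, at 597, 312 and 286 CPM in CKO, against 302, 292 and 346 CPM in WT. The median log2 fold change of 0.08 was 0.14 without CKO 14 and -0.02 without CKO 17.

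Rrp12 was the gene with the smallest p in CD4 SP, at 30.8, 43.9 and 37.3 CPM in CKO, all above the 24.9, 25.5 and 24.9 CPM in WT (0.59 ± 0.20, adjusted p = 0.958). Fbl, at 90.8, 79.3 and 72.02 CPM in CKO, was likewise above the 52.0, 62.0 and 59.9 CPM in WT (0.50 ± 0.20, adjusted p = 0.958). Nop10 had 54.5, 29.5 and 23.9 CPM in CKO, against 20.1, 23.9 and 21.9 CPM in WT, with CKO 14 far above the rest (0.75 ± 0.35, adjusted p = 0.958). Wdr12 had the opposite sign, at 53.6, 29.4 and 63.4 CPM in CKO, below the 69.7, 71.4 and 87.5 CPM in WT (-0.62 ± 0.32, adjusted p = 0.958). Nop56, at 166, 240.2 and 253 CPM in CKO, also lay below the 279, 276 and 259 CPM in WT (-0.29 ± 0.21, adjusted p = 0.958). Utp15, a UTP-A subunit, was lowest in CKO 14, at 53.6, 84.8 and 98.8 CPM in CKO and 96.5, 98.1 and 84.8 CPM in WT (-0.22 ± 0.25, adjusted p = 0.958). The 10 DP markers summed to 9430 CPM for mouse 14, 1628 CPM for mouse 17 and 4768 CPM for mouse 23 among CKO libraries, and to 4697 to 7322 CPM in WT, and dividing-cell markers to 407 to 1138 CPM in CKO, against 911 to 1301 CPM in WT, with 0 of 10 called by edgeR on each list. Their part was not tested. The difference in genotype effect between CD4 SP and DP was called by edgeR, DESeq2 and limma voom for 0 of 38 genes, where 0% of 12216 genes tested were; 2 of the 38, Fbl (0.50 ± 0.20) and Nop10 (0.86 ± 0.37), had an unadjusted p under 0.05 in edgeR, beside 2.15% of all genes tested. The next smallest p on the positive side was that of Rrp12 (0.51 ± 0.25), and on the negative side those of Wdr12 (-0.67 ± 0.32), Nip7 (-0.40 ± 0.19) and Rrp9 (-0.34 ± 0.20), all with an adjusted p of 0.983.

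Between populations of WT mice most of the 38 genes differed. In the spleen 27 of 38 were higher in CD8 than in CD4 cells, where 15.3% of 14131 genes tested were, and 1 was lower, where 16.5% were. The median log2 fold change, CD8 over CD4, was 0.30 beside 0.01 for all genes tested. Mybbp1a had 336, 325 and 322 CPM in CD8 cells, against 236, 243 and 233 CPM in CD4 cells (0.46 ± 0.05, adjusted p = 3.52e-05). Rrp12 had 71.9, 78.3 and 77.3 CPM in CD8 cells, against 50.7, 53.6 and 51.9 CPM in CD4 cells (0.53 ± 0.06, adjusted p = 3.94e-05). For Npm1 the same contrast of the values given above was 0.45 ± 0.06 (adjusted p = 1.03e-04), and in all 3 genes the CD8 and CD4 libraries were well apart. All 4 box C/D and all 4 box H/ACA genes were higher in CD8 cells, by 0.18 (Nop56) to 0.59 (Nhp2). Of the chaperones and scaffold genes Npm1, Gnl3, Ddx21 and Ncl were higher, by 0.24 (Ncl) to 0.45 (Npm1). Of the small subunit genes Rrp12, Utp20, Bysl, Heatr1, Wdr43, Wdr75 and Nop14 were higher, by 0.18 (Nop14) to 0.53 (Rrp12). Of the 60S genes Pes1, Nip7, Nop2, Noc2l, Ebna1bp2 and Noc3l were higher, by 0.23 (Noc3l) to 0.36 (Pes1).

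Polr1a was the exception in the spleen, at 95.7, 105 and 98.3 CPM in WT CD8 cells, against 116, 125 and 111 CPM in WT CD4 cells (-0.25 ± 0.06, adjusted p = 0.0106), whereas its partner subunit Polr1b was higher in CD8 cells (0.44 ± 0.07, adjusted p = 2.79e-04). Without WT 70 of spleen CD4, the call of Polr1a was lost. Wdr12 and Rrp1 had the other negative estimates, -0.09 ± 0.08 and -0.03 ± 0.06, and were not called. In the same contrast Myc was higher in CD8 cells (1.01 ± 0.09, adjusted p = 2.15e-06), as were 54 of 125 other ribosome biogenesis genes, with 0 lower. Of the dividing-cell markers, 0 of 10 were higher and 4 of 10 lower in WT CD8 cells, and 7 of 8 myeloid markers were lower.

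**Figure D5:**
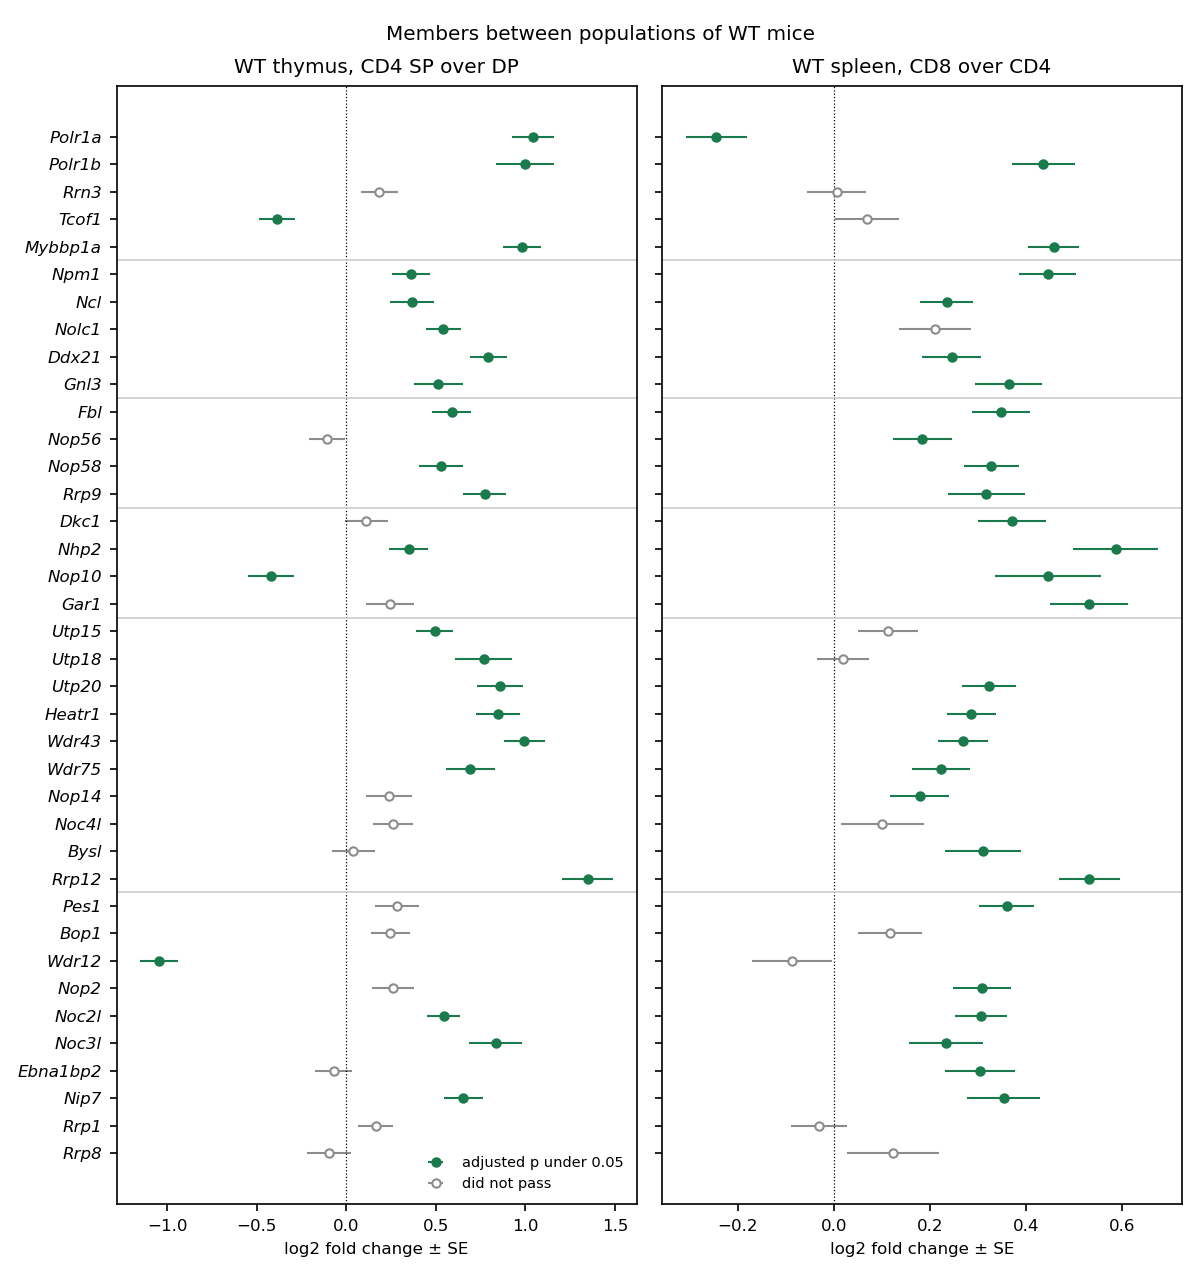
Log2 fold change ± SE of the 38 genes between populations of WT mice, thymus CD4 SP over DP (left) and spleen CD8 over CD4 (right), with separate horizontal scales; filled points passed an adjusted p under 0.05. In the thymus Rrp12 reaches 1.35 and Wdr12 -1.05, and in the spleen Nhp2 reaches 0.59 and Polr1a -0.25.

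In the thymus 22 of 38 genes were higher in WT CD4 SP than in WT DP cells, where 21.7% of 11826 genes tested were, and 3 were lower, where 18.1% were. The median log2 fold change was 0.43, beside 0.01 for all genes tested. Rrp12 had 24.9, 25.5 and 24.9 CPM in CD4 SP, against 10.4, 8.11 and 11.003 CPM in DP (1.35 ± 0.14, adjusted p = 1.23e-05). Polr1a had 78.0, 65.6 and 64.4 CPM in CD4 SP, against 32.7, 35.1 and 33.6 CPM in DP (1.04 ± 0.12, adjusted p = 1.87e-05), and Mybbp1a 186, 204 and 169 CPM in CD4 SP, against 95.98, 85.4 and 102 CPM in DP (0.98 ± 0.11, adjusted p = 1.56e-05). In these genes every CD4 SP library was well above every DP library. All 5 chaperone and scaffold genes were called higher, by 0.36 (Npm1) to 0.79 (Ddx21). So were 7 of the 10 small subunit genes, namely Rrp12, Wdr43, Utp20, Heatr1, Utp18, Wdr75 and Utp15, by 0.49 (Utp15) to 1.35 (Rrp12). The other genes called higher were Polr1b (0.998 ± 0.161), the box C/D genes Rrp9 (0.77 ± 0.12), Fbl (0.59 ± 0.11) and Nop58 (0.53 ± 0.12), the H/ACA gene Nhp2 (0.35 ± 0.11), and the 60S genes Noc3l (0.83 ± 0.15), Nip7 (0.65 ± 0.11) and Noc2l (0.54 ± 0.09). Rrp8, a methyltransferase of the large ribosomal RNA, was called in no comparison.

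The 3 genes lower in CD4 SP were Wdr12, Tcof1 and Nop10. Wdr12 had 69.7, 71.4 and 87.5 CPM in CD4 SP, against 151, 165 and 157 CPM in DP (-1.05 ± 0.11, adjusted p = 8.55e-06), while its PeBoW partners Pes1 and Bop1 had positive estimates of 0.28 ± 0.12 (adjusted p = 0.0803) and 0.25 ± 0.11 (adjusted p = 0.0874). Tcof1 was at -0.39 ± 0.10 (adjusted p = 0.00795) and Nop10 at -0.42 ± 0.13 (adjusted p = 0.0193). In the WT CD4 SP libraries the 10 DP markers summed to 4697 to 7322 CPM, beside 11617 to 13087 CPM in DP. That list includes Cd4, which CD4 SP cells carry too, so the sum does not measure DP cells alone. All 10 dividing-cell markers were lower in CD4 SP. What the markers on both lists add to the differences was not tested.

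Across the 5 WT populations, whose tables were scaled apart, 24 of the 38 genes had their highest mean CPM in thymus CD8 SP, 9 in spleen CD8, 3 in thymus CD4 SP and 2 in DP. The lowest mean was in DP for 26 genes, in spleen CD4 for 10 and in spleen CD8 for 2. The median of the 38 mean CPM values was 101 in CD8 SP, 86.5 in spleen CD8, 73.7 in spleen CD4, 58.9 in CD4 SP and 43.5 in DP. Npm1 followed this order of medians, with a mean of 1128 CPM in CD8 SP, 803 in spleen CD8, 586 in spleen CD4, 216 in CD4 SP and 169 in DP. Not all genes did. Nhp2 stood higher in CD4 SP than in both spleen populations. Wdr12 had its highest mean in DP (158 CPM) and its lowest in spleen CD8 (24.2 CPM). These orders are descriptions, since levels were tested only within a table. Dividing-cell markers summed to 4871 to 5436 CPM in WT CD8 SP, 2404 to 3592 in DP and 911 to 1301 in CD4 SP. In the WT spleen they summed to 202 to 230 CPM in CD4 and 159 to 185 in CD8 cells. Mature single-positive markers summed to 997 to 1114 CPM in WT CD8 SP, beside 2107 to 3100 in CD4 SP and 557 to 624 in DP. The part of these markers in the orders was not tested. Per kilobase of exon, Npm1 was the most abundant of the 38 in WT CD8 SP (555 CPM per kb), spleen CD8 (395) and spleen CD4 (288), whereas Rrp1, a 60S factor, led in CD4 SP (220.5) and DP (198). The lowest per kilobase was Wdr12 in CD8 SP (5.63), spleen CD8 (2.27) and spleen CD4 (2.40), Utp20 in CD4 SP (4.58) and Rrp12 in DP (2.27).

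A feature that did not enter the choice of the genes is the snoRNA content of their introns. In the annotation 6 of the 38 genes contain snoRNA genes (15.8%): Ncl, Gnl3, Nop56, Nop58, Dkc1 and Wdr43, beside 372 of 21900 protein-coding genes (1.7%). In spleen CD4 cells 4 of these 6 hosts were lower in CKO (Ncl, Gnl3, Dkc1 and Wdr43), where 5.63% of all genes tested were. The 6 hosts had a median log2 fold change of -0.26, beside -0.07 for the 32 genes with no snoRNA inside, of which 2 were lower. Of the 6 fits that leave out a library, Ncl was called in 4, Wdr43 in 2, and Gnl3 and Dkc1 in 1. Gnl3 and Dkc1 overlap other annotated genes. In spleen CD8 cells 2 of the 6 hosts were lower (Gnl3 and Wdr43), and so were 6 of the 32 other genes, where 6.22% of all genes tested were. The medians there were -0.18 for hosts and -0.10 for the other genes. In the thymus the medians of hosts and of the other genes were -0.10 and -0.10 in CD8 SP, 0.00 and 0.03 in DP, and -0.32 and 0.16 in CD4 SP, with 0 called by edgeR in each. The CD4 SP medians include CKO 14, which stood apart. Its mean deviation over the 38 genes was -0.37, against 0.22 in CKO 17 and 0.12 in CKO 23. What that library adds to the CD4 SP gap was not tested. In the WT comparisons they were 0.30 and 0.30 for spleen CD8 over CD4, and 0.44 and 0.43 for CD4 SP over DP. The libraries were poly(A)-selected, so the snoRNAs themselves were not measured.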

How the data were processed

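Per the labels' protocols, RNA was selected by its poly(A) tail and its library kit keeps the strand. The authors deposited raw counts of reads per gene symbol, in 1 table for the spleen, 1 for thymus CD8 SP and 1 for the other thymus populations. Per the submitters' processing notes, the tools were HISAT2 and HTSeq and the build was GRCm38. Their versions and annotation, and whether counting used strand, were not given in the sources used, so genes that overlap another may share counts. Columns were matched to samples by title, and 0 were left unmatched.

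Each genotype comparison was fitted on its own 6 libraries, and each WT population comparison on the 6 WT libraries of the 2 populations, with edgeR 4.0.16 (R 4.3.3; filterByExpr, TMM, quasi-likelihood test, Benjamini-Hochberg adjustment over all genes tested, threshold 0.05, no fold threshold). Genotype effects of 2 populations were compared as an interaction over 12 libraries. SE is the absolute log2 fold change over the square root of F. The scripts were tested on simulated data. Alternatives were DESeq2 1.42.0, limma 3.58.1 voom with quality weights, DESeq2 size factors in edgeR, library sizes without TMM, all 12 libraries of a table in 1 fit, omitting the filter, a stricter filter (5 CPM in 3 libraries), sex as a covariate where both sexes occurred, each library left out in turn, and the replicate number as a block. Means over the 38 genes used log2 CPM with a prior count of 2.

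The 38 genes, the wider lists and the markers were chosen with earlier results of these data known. The text names every gene of the 38 called in a genotype or WT population comparison, the 3 with the smallest p in each direction of each comparison, the 2 with the smallest p of most wider lists, and others of the 38 where their groups did not overlap. Spleen CD4 and CD8 libraries, and thymus DP and CD4 SP libraries, came from the same numbered mice per the titles; same-mouse correlations of deviations were 0.457 to 0.635 for CKO and 0.0752 to 0.366 for WT in the spleen, and -0.294 to 0.206 for CKO and -0.0769 to 0.276 for WT in the thymus. No 2 replicates agreed within sampling noise (chi-square per degree of freedom of at least 6.20). Nothing states separate cultures or litters, so p-values measure the spread between these mice. Precision is set by 3 mice per group. Sex was called from Ddx3y (at least 50 CPM is male). Promoters came from RefSeq (GRCm38.p6), and 33 of 38 genes matched by symbol.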

Additional observations from a re-analysis of the deposited data

How the results depend on the processing

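In spleen CD4 cells 1 of the 38 genes, Wdr12, was called higher with DESeq2 (1), with limma voom with quality weights (1), with no filter (1) and with the filter of 5 CPM in 3 libraries (1). With each library left out, 0 to 2 were called higher and 1 to 6 lower. In spleen CD8 cells 2 to 9 were called lower with each library left out, and 5 with library-size scaling without TMM, which was chosen after seeing the data. With no filter 1 gene, Fbl, was called lower in thymus CD8 SP. With each library left out Tcof1 there ranged from -0.0129 to 0.0342 on the log2 scale, and its estimate reversed to -0.0129 without CKO replicate 1. Between WT spleen CD8 and CD4 cells 0 to 1 were called lower with each library left out. The cause of these shifts was not tested. With the replicate block 22 genes were higher and 3 lower in WT CD4 SP against DP, 28 higher and 1 lower in WT spleen CD8 against CD4, and 0 were called in thymus CD8 SP, where 37 of 38 estimates stayed negative; both interactions called 0 genes with the block. Same-numbered thymus CD8 SP libraries of CKO and WT correlated at 0.00989 to 0.175, and differently numbered ones at -0.183 to 0.0943. Thymus DP and CD4 SP libraries of the same mouse reached only -0.294 to 0.206 for CKO and -0.0769 to 0.276 for WT. Whether the CD8 SP numbers pair the libraries therefore cannot be told from these values. The other values were those of single genes, counts over all genes and medians of the 38 genes. Of these, 1190 stayed as in the main fit, 69 gene values lost a call, 8 gained one, and 64 counts or medians moved. For a gene, staying means keeping its direction and its side of the threshold. For a count or median, it means staying within a set limit. With 3 mice per group, spleen calls other than those of Npm1 and Pes1 were each lost in at least 2 of 6 fits that leave out a library, and in thymus CD4 SP the SE of 0.20 (Rrp12) to 0.35 (Nop10) limits what could be called.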
